A study of Rattus norvegicus with 25 samples.

Results

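Mature sperm from 12 of 25 rats in the series came from males that had self-administered saline and no morphine. F0_SAL held 7 males whose sperm was taken at the end of saline intravenous self-administration (IVSA), and F0_ABS-SAL held 5 other males whose sperm was taken 90 days later. The groups were chosen by the saline and collection labels and by no measured value. All were Sprague–Dawley males that had lever access to saline infusions, and no morphine was given in either group. For IVSA the paper describes jugular catheters placed under ketamine and xylazine and kept open with timentin in heparinized saline. Sperm was taken from the cauda epididymis, purified by swim-up, and its small RNA was sequenced. Age at collection is not given in the sources used here. Because 90 days separate the collections, time since the last IVSA session, age and any batch of sampling or library preparation cannot be told apart. The comparison asks how the small RNA of sperm differed between the collections with no morphine involved.

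miRNAs are short RNAs cut from both arms of a hairpin, named 5p and 3p after the arm. They pair with messenger RNAs mainly through the seed, which is formed by bases 2 to 8, so that miRNAs with the same seed form a family. Many miRNA genes lie side by side and are transcribed together as a cluster. Sperm is rich in the miR-34b and miR-34c pair, which is made late in spermatogenesis, and it takes up further small RNA from the epithelium of the epididymis. Besides miRNAs, sperm small RNA libraries hold fragments of mitochondrial and nuclear-encoded rRNA and of small nuclear RNAs (snRNAs) and small nucleolar RNAs (snoRNAs), which serve splicing and the modification of other RNAs.

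Mature sequences are printed for sets of miRNAs that share a seed but differed in direction or size, with bases 2 to 8 in capitals. They were taken from RefSeq (rat assembly GRCr8), in which 520 of the 562 miRNAs in the matrix, and 294 of the 317 tested, were found by name. The seed of miR-34 and miR-449a is shown because miR-34c-5p and miR-34b-5p were called lower and miR-34a-5p higher at the later collection, while miR-449a-5p was not called.
miR-34c-5p: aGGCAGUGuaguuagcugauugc
miR-34b-5p: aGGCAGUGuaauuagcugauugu
miR-449a-5p: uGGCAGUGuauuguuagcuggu
miR-34a-5p: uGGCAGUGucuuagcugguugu
The seed of miR-15 and miR-16 is shown because the members from different clusters had different fold changes.
miR-16-5p: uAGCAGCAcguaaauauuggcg
miR-15b-5p: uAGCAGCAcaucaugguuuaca
miR-195-5p: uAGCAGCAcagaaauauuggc
miR-497-5p: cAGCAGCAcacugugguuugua
miR-322-5p: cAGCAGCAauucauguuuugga
A pair of let-7 miRNAs is shown because they share the seed and were called in opposite directions.
let-7a-5p: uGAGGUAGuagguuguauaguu
let-7e-5p: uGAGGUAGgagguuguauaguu
The neighbours miR-547-3p and miR-201-5p are shown because both were higher in every later library although their seeds differ.
miR-547-3p: aUUGGUACuucuuuaagugaga
miR-201-5p: cACUCAGUaaggcauuguuc

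Of 317 miRNAs that passed the filter on low counts, 105 (33.1%) were called at a Benjamini-Hochberg adjusted p under 0.1 with a log2 fold change beyond 0.58 in edgeR's quasi-likelihood test. These were 71 miRNAs (22.4%) higher and 34 (10.7%) lower in F0_ABS-SAL. The groups overlapped for most of them, since 15 miRNAs (4.73%) had all later libraries above all earlier ones and 7 (2.21%) all below, over all tested miRNAs. Fold changes are relative to the TMM scale, a library scaling that centres most miRNAs, on which the median log2 fold change over all 317 was 0.00. Scaling by total miRNA count alone moved that median to 0.39, and the split became 110 higher and 1 lower, so a miRNA called lower on the TMM scale was lower relative to the typical miRNA. Among the third of tested miRNAs with the highest counts, 20 were higher and 22 lower, against 24 higher and 4 lower in the third with the lowest counts.

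The libraries held between 1157748 and 3203211 miRNA counts in F0_SAL and between 1622445 and 3054222 in F0_ABS-SAL. Despite the overlapping totals, at most 382 miRNAs (median 373) had a count in a F0_SAL library and at least 403 (median 416) in a F0_ABS-SAL library. At 10 or more CPM (counts scaled to a common library total) the numbers were 233 to 259 and 262 to 281, again with no overlap. One later library, R, stood apart, with a normalized miR-143-3p count of 148499 where the other later libraries held 31924 to 52394. Without library R, 65 miRNAs were called, 44 higher and 21 lower, and 64 of them were among the 105.

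**Figure D1:**
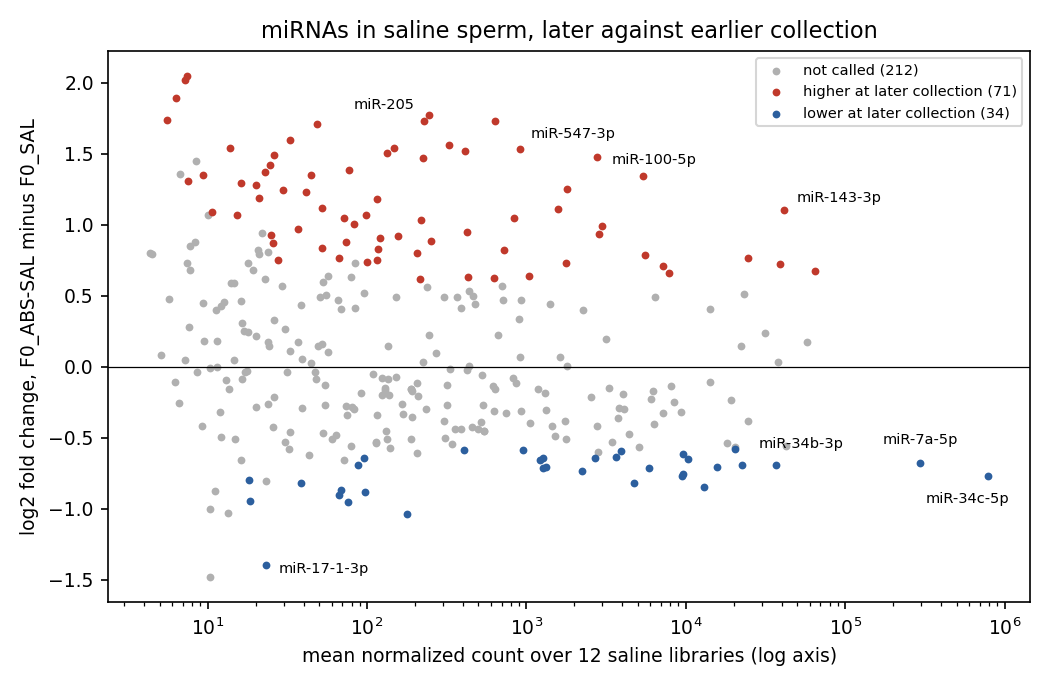
Each point is 1 of 317 tested miRNAs. The x axis is its mean normalized count over the 12 saline libraries (log axis), the y axis its log2 fold change, F0_ABS-SAL minus F0_SAL. Red points are the 71 miRNAs called higher at the later collection, blue points the 34 called lower, grey points the 212 not called. The miRNAs with the highest counts, miR-34c-5p and miR-7a-5p, lie below 0.

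The miRNA with the smallest p was miR-547-3p, from an X-linked cluster expressed in testis. Its normalized count was 359.7, 529 and 603 (lowest, median and highest) in F0_SAL and 1439.9, 1523, 791, 2122 and 1481 in F0_ABS-SAL (log2 fold change 1.53, standard error 0.22, adjusted p = 2.05e-05). All 5 later libraries lay above all 7 earlier ones. Of the 6 tested arms of the miR-547, miR-201 and miR-3585 hairpins, whose genes lie on the same strand within 10 kb of the next, 5 were called higher, and the exception, miR-201-3p, had a log2 fold change of 0.68 (adjusted p = 0.189). miR-201-5p was 142, 184 and 241 (lowest, median and highest) in F0_SAL and 377, 282, 261, 491 and 318 in F0_ABS-SAL (log2 fold change 0.89, standard error 0.21, adjusted p = 0.00338), again without overlap of the groups. The other arm of the Mir547 hairpin, miR-547-5p, had few counts, 8.12, 12.5 and 26.5 (lowest, median and highest) in F0_SAL and 48.6, 44.8, 21.1, 44.2 and 35.2 in F0_ABS-SAL (log2 fold change 1.42, standard error 0.39, adjusted p = 0.00943). miR-509-3p, listed with these X-linked miRNAs, was higher at 0.97. miR-3580-3p, listed with them too, was lower at -0.82, but its gene lies in the other X-linked region described below. Of the 9 tested miRNAs of this list 6 were higher and 1, miR-3580-3p, was lower, and without library R 4 and 1.

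The other large X-linked group of testis miRNAs gave no call in the direction of miR-547-3p. Of 21 tested miRNAs listed for the miR-741, miR-743, miR-871, miR-880 and miR-881 region, 0 were higher and 2 lower, or 1 without library R. The list left out miR-3580-3p, called lower above, whose gene lies between Mir871 and Mir465 in this region. The median log2 fold change of the list was -0.31, but with total count scaling it was 0.08, so the direction of the group depended on the scaling. miR-743b-5p was the member with the smallest p, with normalized counts of 9584, 11042 and 14455 (lowest, median and highest) in F0_SAL and 8213, 6004, 5132, 7355 and 7605 in F0_ABS-SAL (log2 fold change -0.76, standard error 0.21, adjusted p = 0.00957). All its later libraries lay below all earlier ones. On the X chromosome as a whole 14 of 63 tested miRNAs were higher and 5 lower, against 52 and 24 of 214 on autosomes, so both were near the background of 22.4% and 10.7%.

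Among the miRNAs called lower were the most abundant miRNAs of these libraries. miR-34c-5p alone held 35.03% to 53.6% of the miRNA counts in F0_SAL and 26.1% to 41.1% in F0_ABS-SAL, and its mean share dropped by 9.56 percentage points. In a two-sided exact permutation test over the 12 libraries this difference had p = 0.0404, or 0.0774 after adjustment over 4 measures of the libraries. Its normalized count was 666090, 899000 and 1268220 (lowest, median and highest) in F0_SAL and 455582, 661090, 550135, 466037 and 653924 in F0_ABS-SAL (log2 fold change -0.77, standard error 0.21, adjusted p = 0.00943), and the groups did not overlap. miR-34b-3p, from the neighbouring hairpin, was 32392, 45635 and 53609.6 (lowest, median and highest) in F0_SAL and 26411, 35387, 29810.1, 18418 and 24881 in F0_ABS-SAL (log2 fold change -0.69, standard error 0.16, adjusted p = 0.0027), with 1 later library above the lowest earlier one. All 4 tested arms of Mir34b and Mir34c were called lower (log2 fold changes -0.77, -0.69, -0.64 and -0.64). With total count scaling their median stayed below 0, at -0.27, but 0 of the 4 were called, and without library R 2 were called.

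miR-34a-5p, which has the same seed but comes from a separate gene that responds to p53 in many tissues, was higher. Its counts were low, 11.6, 25 and 41.9 (lowest, median and highest) in F0_SAL and 37.9, 57.2, 88.1, 80.1 and 48.7 in F0_ABS-SAL (log2 fold change 1.23, standard error 0.41, adjusted p = 0.0265), and the groups overlapped. It was called with total count scaling and without library R as well. miR-449a-5p, which has this seed too, had a log2 fold change of -0.54 and was not called because its fold change did not reach 0.58.

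miR-7a-5p, the miRNA with the second highest count and best known from neuroendocrine cells, was 212742, 360251 and 500521 (lowest, median and highest) in F0_SAL and 265235, 162171, 131599, 236754 and 293314 in F0_ABS-SAL (log2 fold change -0.68, standard error 0.23, adjusted p = 0.0303), with overlapping groups. miR-30c-5p, of a family that is abundant in many epithelia, was 20256, 27632 and 32947 (lowest, median and highest) in F0_SAL and 16918, 19226, 18413, 11773 and 17033 in F0_ABS-SAL (log2 fold change -0.69, standard error 0.17, adjusted p = 0.0045), and all later libraries lay below all earlier ones. It was the only called miRNA among the 8 tested of the miR-30 family, whose median log2 fold change was -0.33 (0.05 with total count scaling). miR-28-3p, cut from an intron of a gene for a cytoskeletal adaptor protein, was 1177, 1555 and 1967 (lowest, median and highest) in F0_SAL and 884, 1034, 1032, 1009 and 872 in F0_ABS-SAL (log2 fold change -0.70, standard error 0.17, adjusted p = 0.00446), also without overlap.

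The miR-17-92 and miR-106b-25 clusters, which promote cell division and hold paralogous copies of the same seeds, lay below 0 with few exceptions. Of 8 tested miRNAs of miR-17-92, 4 were lower and 0 higher (median log2 fold change -0.55), and of 5 of miR-106b-25, 2 were lower and 0 higher (median -0.53). Both medians were below 0 with total count scaling too (-0.16 and -0.14), where 1 and 0 were called. miR-17-1-3p had the lowest fold change of the miRNAs called, with normalized counts of 24, 29.3 and 41.4 (lowest, median and highest) in F0_SAL and 4.86, 17.2, 14.5, 7.37 and 14.1 in F0_ABS-SAL (log2 fold change -1.40, standard error 0.38, adjusted p = 0.00943). The highest later library was below the lowest earlier one. miR-25-3p and miR-92a-3p share a seed and come from different clusters, and their log2 fold changes were -0.71 and -0.72. The seed family of these 2 miRNAs had 5 tested members, of which 2 were lower and 0 higher, but 0 were lower without library R or with total count scaling. Without library R, 1 miRNA of each of the 2 clusters remained called.

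The imprinted neighbours miR-296 and miR-298, which lie in the Gnas region, were called lower in 2 of 3 tested miRNAs, in 1 without library R and in 0 with total count scaling. miR-298-5p was 70.4, 80.3 and 100.6 (lowest, median and highest) in F0_SAL and 65.1, 37.9, 33.2, 46 and 50.5 in F0_ABS-SAL (log2 fold change -0.87, standard error 0.25, adjusted p = 0.0128), with no overlap between groups. miR-296-5p was 62.9, 285 and 371 (lowest, median and highest) in F0_SAL and 211, 97.2, 133, 41.4 and 66.4 in F0_ABS-SAL (log2 fold change -1.04, standard error 0.41, adjusted p = 0.0569), with wide overlap and a wide spread among the earlier libraries. The other imprinted cluster, Dlk1-Dio3, which is expressed from the maternal chromosome, lay above 0. Of 65 of its miRNAs in the matrix 21 passed the filter on low counts, and of these 3 were higher and 0 lower, with a median log2 fold change of 0.49. The number higher was 1 without library R and 9 with total count scaling. miR-127-3p of this cluster was 158, 208 and 570.1 (lowest, median and highest) in F0_SAL and 255, 419, 696, 1155 and 442 in F0_ABS-SAL (log2 fold change 0.95, standard error 0.36, adjusted p = 0.0499), and without library R its log2 fold change was 0.56 (adjusted p = 0.261).

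Several families known mainly from somatic tissues held a larger share of members called higher than the 22.4% of all tested miRNAs. Of 9 tested miRNAs of miR-23, miR-27 and miR-24, 6 were higher and 0 lower (median 0.82). Of 8 of miR-10, miR-99 and miR-100, which lie beside Hox genes or let-7 genes, 5 were higher (median 0.74). Of 5 of miR-125 and miR-351, 3 were higher (median 0.93), and of 3 of the miR-221 and miR-222 pair, 3 were higher (median 0.73). Without library R these counts were 5, 3, 2 and 1.

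miR-100-5p had normalized counts of 1050.4, 1356 and 2839 (lowest, median and highest) in F0_SAL and 2677, 3141, 6562, 5715 and 3965 in F0_ABS-SAL (log2 fold change 1.47, standard error 0.27, adjusted p = 3.53e-04), and only 1 later library lay below the highest earlier one. miR-125b-5p, from the same kind of locus, was 1198, 1563 and 4448 (lowest, median and highest) in F0_SAL and 3206, 3067, 4860.2, 3972 and 4553 in F0_ABS-SAL (log2 fold change 0.93, standard error 0.27, adjusted p = 0.0128), with overlapping groups. Its passenger strand miR-125b-2-3p was 80.3, 98.9 and 252 (lowest, median and highest) in F0_SAL and 300.2, 252, 430.3, 486 and 312 in F0_ABS-SAL (log2 fold change 1.47, standard error 0.27, adjusted p = 3.69e-04), with the lowest later and highest earlier library nearly equal. miR-27a-3p was 623, 1127 and 1408 (lowest, median and highest) in F0_SAL and 2448, 1713, 2154, 2634 and 2470.1 in F0_ABS-SAL (log2 fold change 1.11, standard error 0.22, adjusted p = 8.97e-04), without overlap. miR-101a-3p, which targets the histone methyltransferase EZH2, was 2478, 3591 and 4206 (lowest, median and highest) in F0_SAL and 5257, 7873, 10892, 10619.9 and 7214 in F0_ABS-SAL (log2 fold change 1.34, standard error 0.29, adjusted p = 0.00195), and every later library was above every earlier one. miR-101b-3p, whose similar sequence makes the split of reads between them uncertain, was 15310.4, 19827 and 26123 (lowest, median and highest) in F0_SAL and 15076, 17560.4, 17473, 17234 and 20356 in F0_ABS-SAL, and its log2 fold change was -0.24 (adjusted p = 0.333).

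The abundant miR-148a-3p, and miR-10a-5p and miR-27b-3p of the families above, were also called higher, but not without library R. miR-148a-3p was 40370.1, 48402 and 61394 (lowest, median and highest) in F0_SAL and 64431, 49737, 70243, 157576 and 68952 in F0_ABS-SAL (log2 fold change 0.67, standard error 0.24, adjusted p = 0.0386), and 0.26 (adjusted p = 0.398) without library R. miR-10a-5p was 15055, 18498 and 27249 (lowest, median and highest) in F0_SAL and 24199.5, 23522, 35701, 51206 and 27126 in F0_ABS-SAL (log2 fold change 0.76, standard error 0.20, adjusted p = 0.00722), and 0.51 (adjusted p = 0.0666) without library R. For miR-27b-3p the log2 fold change was 0.71, and 0.56 (adjusted p = 0.0189) without library R. Among the rarer miRNAs, miR-96-5p, a sensory organ miRNA of the miR-183 cluster, was 27.9, 49.7 and 56.3 (lowest, median and highest) in F0_SAL and 95.2, 112, 102, 197 and 98.7 in F0_ABS-SAL (log2 fold change 1.39, standard error 0.28, adjusted p = 8.87e-04). miR-221-5p was 9.38, 18.2 and 29.3 (lowest, median and highest) in F0_SAL and 45.7, 45.5, 35.6, 90.2 and 52.9 in F0_ABS-SAL (log2 fold change 1.596, standard error 0.35, adjusted p = 0.00195), and miR-3068-3p was 43.1, 75 and 115 (lowest, median and highest) in F0_SAL and 155, 201, 136, 395 and 188 in F0_ABS-SAL (log2 fold change 1.501, standard error 0.32, adjusted p = 0.0018). For miR-96-5p, miR-221-5p and miR-3068-3p every later library was above every earlier one, while the groups overlapped for miR-148a-3p and miR-10a-5p. In the remaining families 2 of 3 tested miRNAs of miR-183, miR-96 and miR-182 were higher, 1 of 6 of miR-181, 1 of 5 of miR-148 and miR-152 and 1 of 4 of miR-29. In the families of miR-26, miR-103 and miR-130 there were 0 calls of 2, 2 and 3 tested, and 1 of 2 of miR-19 was lower. Without library R, 1 miRNA of the miR-183, miR-96 and miR-182 group stayed called and 0 of miR-181, of miR-148 and miR-152, of miR-29 and of miR-19, while total count scaling gave 6 of 6 higher for miR-181.

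The miR-15 and miR-16 family gave different values in its clusters. miR-16-5p and miR-15b-5p, which lie together and are made in nearly all cells, had log2 fold changes of -0.14 and -0.14 and were not called. miR-195-5p and miR-497-5p, which lie together in a separate cluster, were called higher at 1.07 and 1.49, and so was miR-322-5p of an X-linked cluster, at 2.02. miR-195-5p was 49.7, 71 and 82 (lowest, median and highest) in F0_SAL and 69, 154, 202, 161 and 119.8 in F0_ABS-SAL (log2 fold change 1.07, standard error 0.25, adjusted p = 0.0027), with 1 later library inside the earlier range. miR-322-5p had few counts, 0, 3.14 and 5.82 (lowest, median and highest) in F0_SAL and 1.94, 15.2, 30.2, 8.29 and 9.4 in F0_ABS-SAL (log2 fold change 2.02, standard error 0.52, adjusted p = 0.00618), and the groups overlapped. Of the 7 tested miRNAs of its cluster, which runs from Mir450a1 to Mir322, 4 were higher and 0 lower.

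let-7 gave few calls. Of 14 tested miRNAs 1 was higher and 1 lower, with a median of 0.01. let-7a-5p was 10261, 15131 and 22773 (lowest, median and highest) in F0_SAL and 15519, 6294, 6885, 7889 and 7901 in F0_ABS-SAL (log2 fold change -0.85, standard error 0.25, adjusted p = 0.0128). Its 4 lowest values were all later libraries, and the remaining later library was library E. let-7e-5p was 114, 154 and 212 (lowest, median and highest) in F0_SAL and 282, 215, 289.7, 377 and 196 in F0_ABS-SAL (log2 fold change 0.80, standard error 0.22, adjusted p = 0.01), with 1 later library inside the earlier range. let-7a-5p and let-7e-5p have nearly the same sequence, so the split of reads between them is uncertain. let-7f-5p, with a higher count than either, had a log2 fold change of 0.03 (adjusted p = 0.901).

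**Figure D2:**
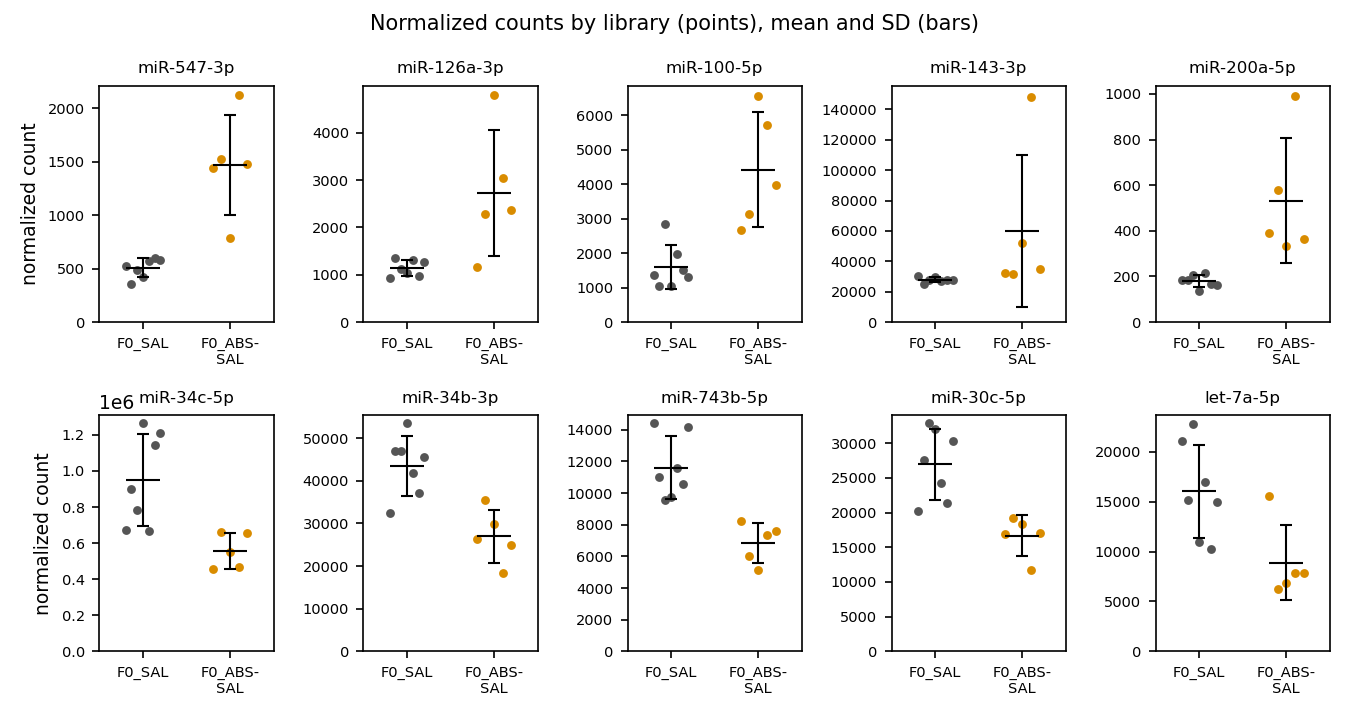
Normalized counts (y axis, linear and from 0) of 10 miRNAs in the 7 F0_SAL (grey) and 5 F0_ABS-SAL libraries (orange). Points are libraries, and the horizontal and vertical bars are the group mean and SD. In the panel of miR-143-3p a single later library, at 148499, lies far above the others, while the groups do not overlap for miR-547-3p, miR-200a-5p, miR-34c-5p, miR-743b-5p and miR-30c-5p.

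Marker miRNAs of other cell types were examined because swim-up sperm can carry other cells and epididymal RNA. In bulk samples a change in the number of such cells and a change in RNA per cell cannot be told apart. Of 7 tested columnar epithelium markers of the miR-200 family, 5 were higher, and the summed level was 11898 to 19636 in F0_SAL and 15801 to 34839 in F0_ABS-SAL. miR-200a-5p was 137, 186 and 216 (lowest, median and highest) in F0_SAL and 391.6, 579.5, 336, 992 and 362.9 in F0_ABS-SAL (log2 fold change 1.56, standard error 0.28, adjusted p = 3.53e-04), and all later libraries lay above all earlier ones. miR-200a-3p was 3641, 4235 and 5086 (lowest, median and highest) in F0_SAL and 5375, 5504, 5519.9, 14394 and 6083 in F0_ABS-SAL (log2 fold change 0.78, standard error 0.23, adjusted p = 0.0125), and without library R its log2 fold change was 0.35 (adjusted p = 0.205). Without library R, 2 of the 7 markers were called. miR-200c-3p, of the other miR-200 cluster, had a log2 fold change of -0.15 (adjusted p = 0.568).

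Of the stratified epithelium markers only miR-205 was called, of 5 tested. Its normalized count was 80.5, 114 and 169 (lowest, median and highest) in F0_SAL and 257, 302, 323, 863 and 186 in F0_ABS-SAL (log2 fold change 1.73, standard error 0.33, adjusted p = 4.87e-04), without overlap, and without library R the log2 fold change was 1.17 (adjusted p = 0.012). miR-203a-3p, a marker of the same epithelia, had a log2 fold change of -0.31 (adjusted p = 0.157). The summed level of the list was 1334 to 2134 in F0_SAL and 1373 to 1979 in F0_ABS-SAL.

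Smooth muscle markers were higher in 3 of 4 tested, with a summed level of 25225 to 31013 in F0_SAL and 32451 to 150298 in F0_ABS-SAL. miR-143-3p, with nearly all of these counts, was 24854, 27831 and 30602 (lowest, median and highest) in F0_SAL and 32191, 31924, 52394, 148499 and 35079.9 in F0_ABS-SAL (log2 fold change 1.10, standard error 0.27, adjusted p = 0.00366). Every later library was above every earlier one, but library R held far more than the others, and without it the log2 fold change was 0.40 (adjusted p = 0.142). miR-145-5p, from the same cluster, was 54.7, 128 and 205 (lowest, median and highest) in F0_SAL and 136, 285, 436, 1069.9 and 153 in F0_ABS-SAL (log2 fold change 1.77, standard error 0.40, adjusted p = 0.00232), and 1.02 (adjusted p = 0.0503) without library R. Without library R, 1 of the 4 was called. The striated muscle markers miR-1-3p, miR-133a-3p and miR-499-5p gave 1 call, miR-133a-3p, at 7.67 and 22.2 normalized counts on average, and its log2 fold change without library R was 0.78 (adjusted p = 0.378). The summed level of striated muscle markers was 440.0 to 831 in F0_SAL and 359 to 637 in F0_ABS-SAL, and miR-208b-3p was at 0 in all 12 libraries.

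Both arms of the endothelial hairpin miR-126a were higher. miR-126a-3p was 923, 1124 and 1356 (lowest, median and highest) in F0_SAL and 1163, 2289, 4796, 3042 and 2364 in F0_ABS-SAL (log2 fold change 1.25, standard error 0.21, adjusted p = 1.94e-04), and 1 later library lay within the earlier range. miR-126a-5p was 46.9, 82.6 and 105 (lowest, median and highest) in F0_SAL and 137, 238, 386, 243 and 189.7 in F0_ABS-SAL (log2 fold change 1.54, standard error 0.26, adjusted p = 2.15e-04), without overlap. Both stayed called without library R, and the summed level was 1003 to 1439 in F0_SAL and 1300.0 to 5182 in F0_ABS-SAL. miR-199a-5p, of a cluster with miR-214 that is expressed in fibroblasts and other mesenchyme, was 83.8, 153 and 496 (lowest, median and highest) in F0_SAL and 353, 637, 1037, 718 and 582 in F0_ABS-SAL (log2 fold change 1.52, standard error 0.35, adjusted p = 0.00259), and all 3 tested miRNAs of its cluster were higher, 2 without library R.

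Blood cell markers gave 1 call. Of 9 tested leukocyte markers 1 was higher and 0 lower, and the summed level was 8828 to 11029.8 in F0_SAL and 8726 to 10989.7 in F0_ABS-SAL. The called marker was miR-146a-5p, which is induced by inflammatory signalling in many cells, with normalized counts of 754, 1455 and 1929 (lowest, median and highest) in F0_SAL and 2932, 2191, 2146, 2310.2 and 2031 in F0_ABS-SAL (log2 fold change 0.73, standard error 0.22, adjusted p = 0.015). miR-142-5p, which is largely restricted to blood cells, had a log2 fold change of -0.16 (adjusted p = 0.61). The 3 erythroid markers had log2 fold changes of -0.39, -0.51 and -0.21, none called, with a summed level of 1706 to 5035 in F0_SAL and 1202 to 2307 in F0_ABS-SAL. The liver marker miR-122-5p was at 3.14, 10.3 and 48.1 (lowest, median and highest) in F0_SAL and 11.7, 3.45, 4.22, 3.68 and 1.76 in F0_ABS-SAL and was not called. In DESeq2 it was called lower, at a log2 fold change of -1.53. Of 5 neuronal markers 0 were higher and 1, miR-128-3p, was lower (0 were lower without library R, where its adjusted p was 0.15, and with total count scaling 1 was higher and 0 lower), with a summed level of 2521 to 5542 in F0_SAL and 3108 to 4140.3 in F0_ABS-SAL. The labelled cell type was clearly present, as the 25 tested male germ cell miRNAs summed to 802936 to 1437310 in F0_SAL and 543879 to 775712 in F0_ABS-SAL. Most of this sum was miR-34c-5p. The X-linked testis list alone summed to 59098 to 90238 in F0_SAL and 44357.5 to 70230 in F0_ABS-SAL, with overlap. Of the 25 germ cell miRNAs, 6 were lower and 0 higher, or 3 and 0 without library R (median -0.39, or 0.02 with total count scaling). The part of other cell types in the differences between collections was not tested.

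Arms of the same hairpin tended to lie on the same side. For 78 hairpins with both arms past the filter, the signs of the 5p and 3p log2 fold changes were the same in 64, and Pearson's r across hairpins was 0.71 (Spearman's rho 0.71), where both arms share the same libraries and hairpins are not independent replicates. Both arms were called in 15 hairpins, 12 higher and 3 lower, and 0 hairpins had arms called in opposite directions. The arms taken apart gave 33 higher and 13 lower of 154 tested 5p miRNAs, and 35 and 17 of 149 tested 3p miRNAs. By abundance, 22 of 78 more abundant arms were higher and 9 lower, against 16 and 6 of the less abundant arms.

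The ratio of the arms within a library does not change with its scaling. No ratio of 78 was called by limma (0%), 7 had an unadjusted p under 0.05, and the smallest adjusted p was 0.132, so the 5 hairpins with the smallest p are described, a choice made after their values were seen. For miR-99b the log2 ratio of 5p to 3p was 6.16, 6.98 and 8.25 (lowest, median and highest) in F0_SAL and 6.07, 5.63, 5.52, 5.52 and 6.16 in F0_ABS-SAL, a difference of -1.25 (standard error 0.40, adjusted p = 0.132), and the highest later library lay just under the lowest earlier one. For miR-200a the log2 ratio ran from -4.77 to -4.28 in F0_SAL and from -4.06 to -3.25 in F0_ABS-SAL, a difference of 0.77 (standard error 0.25, adjusted p = 0.132), without overlap. The ratio of miR-339 differed by 0.92 (standard error 0.30, adjusted p = 0.132), that of miR-145 by 1.40 (standard error 0.49, adjusted p = 0.164) and that of miR-3068 by -0.75 (standard error 0.30, adjusted p = 0.285), and these groups overlapped. With library V left out the ratio of miR-339 was called.

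**Figure D3:**
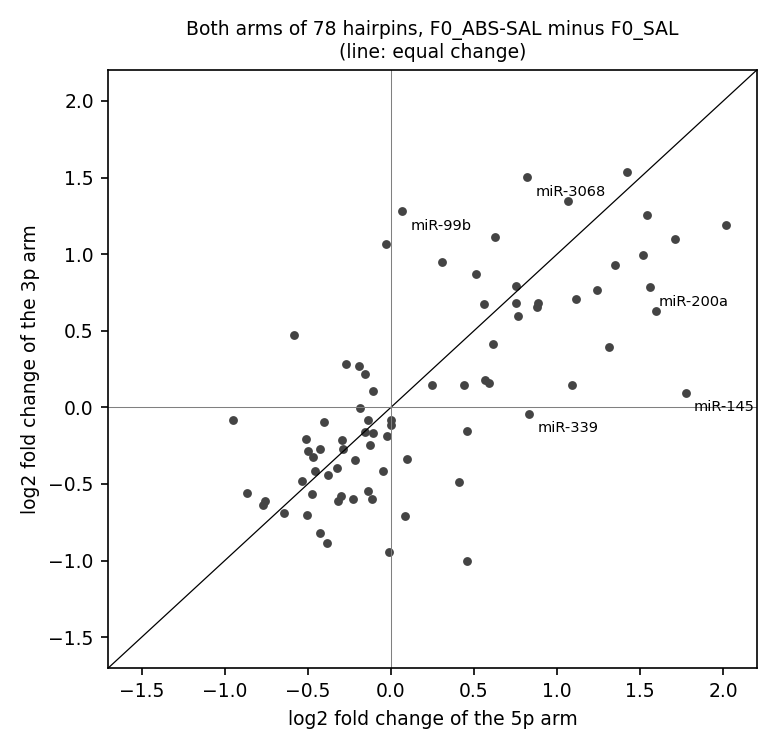
Log2 fold change (F0_ABS-SAL minus F0_SAL) of the 5p arm (x axis) and 3p arm (y axis) of 78 hairpins with both arms tested. Points are hairpins, and the diagonal marks equal change. Most points lie near the diagonal or on the same side of 0 on both axes (64 of 78), and the 5 labelled hairpins have the smallest p for the arm ratio.

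The males that self-administered morphine gave a second pair of collections with other libraries, 7 F0_MOR and 6 F0_ABS-MOR. Of the 105 miRNAs called in the saline groups, 105 had the same sign in the morphine groups, against 161 of 212 not called (75.9%). The test of the difference between the saline and the morphine fold changes called 0 of 317 miRNAs, with 10 at an unadjusted p under 0.05. 45 miRNAs were called in both. Collection and any batch cannot be told apart in the morphine groups either. For the columnar epithelium, smooth muscle and male germ cell lists the medians in the morphine groups were 0.53, 0.69 and -0.25. Some other lists had smaller medians there or the other sign. The miR-15 and miR-16 family had 0.17 (1.07 in saline), miR-181 had 0.09 (0.63 in saline) and striated muscle had -0.26 (0.22 in saline).

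The makeup of the other ncRNAs also differed between the collections, with less mitochondrial rRNA and more snRNA and snoRNA at the later one. The 3804 ncRNA rows had 2086 distinct sets of counts, and rows with identical counts in all 25 libraries were taken as 1 in the test of single sets. The biotype shares count every row unless stated, so a set of identical rows enters once per row. The share of mitochondrial rRNA (Mt_rRNA) in the ncRNA counts was 68.8%, 76.1% and 87% (lowest, median and highest) in F0_SAL and 50.9%, 54.8%, 55.1%, 34.5% and 48.6% in F0_ABS-SAL. The share of snRNA was 5.02%, 11.4% and 15.2% (lowest, median and highest) in F0_SAL and 41%, 35.2%, 36%, 54.9% and 44.3% in F0_ABS-SAL. The groups did not overlap in either share, and the difference in mean log2 share was -0.66 for Mt_rRNA and 1.94 for snRNA. In two-sided exact permutation tests both had p = 0.00253, the smallest that 5 against 7 libraries allow, and an adjusted p of 0.00606 over 12 biotypes. Shares of a library sum to 100%, so these differences are not independent.

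snoRNA was rarer and differed by more. Its share was 0.0335%, 0.0618% and 0.0833% (lowest, median and highest) in F0_SAL and 0.18%, 0.278%, 0.234%, 0.692% and 0.673% in F0_ABS-SAL, a difference in mean log2 share of 2.72 (two-sided exact permutation test, adjusted p = 0.00606), and every later library was above every earlier one. The same direction held with identical rows counted once, where snRNA ran from 2.09% to 7.23% in F0_SAL and from 14.3% to 31.5% in F0_ABS-SAL, and snoRNA from 0.0154% to 0.0373% and from 0.0869% to 0.355%. Mt_rRNA then ran from 78.5% to 91.1% in F0_SAL and from 54.9% to 76.0% in F0_ABS-SAL. misc_RNA, a biotype of small structured RNAs, had a share of 4.62%, 6.04% and 8.42% (lowest, median and highest) in F0_SAL and 3.81%, 4.94%, 4.95%, 4.73% and 2.83% in F0_ABS-SAL (difference in mean log2 share -0.50, exact permutation test, adjusted p = 0.0455). With identical rows counted once its median share was 5.43% in F0_SAL and 5.44% in F0_ABS-SAL. The adjusted p of the exact permutation test was 0.109 without library E or without library Y. The misc_RNA difference thus depended on the counting of rows and on single libraries. Nuclear-encoded rRNA had 3.18%, 6.03% and 9.9% (lowest, median and highest) in F0_SAL and 3.73%, 4.35%, 3.43%, 4.78% and 3.29% in F0_ABS-SAL (difference -0.54, exact permutation test, adjusted p = 0.143), with overlap. Without mitochondrial rRNA in the denominator, misc_RNA and nuclear-encoded rRNA were both lower in every F0_ABS-SAL library than in every F0_SAL library. antisense transcripts and mitochondrial tRNA also passed the exact permutation test, at differences of 0.90 and 1.38 (adjusted p = 0.00606 each), but held at most 0.00884% and 4.76e-04% of the ncRNA counts. The antisense difference changed sign when mitochondrial rRNA was left out of the denominator, and the groups then overlapped for mitochondrial tRNA. Total ncRNA counts over all rows ran from 2338578 to 6489784 in F0_SAL and from 3987491 to 6294293 in F0_ABS-SAL (difference in log2 total 0.70, exact permutation test, adjusted p = 0.0774). With identical rows counted once they ran from 2047943 to 6198331 in F0_SAL and from 2503867 to 4247104 in F0_ABS-SAL, within the F0_SAL range, and this difference was not tested.

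**Figure D4:**
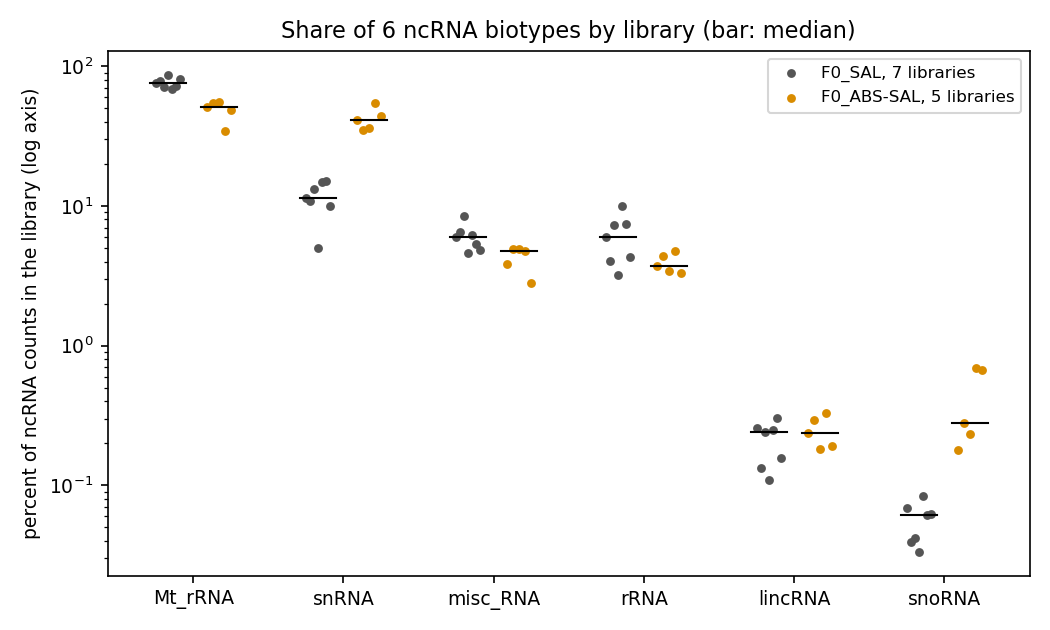
Share of 6 ncRNA biotypes in the ncRNA counts of each library, with every row counted (y axis, percent, log axis). Grey points are the 7 F0_SAL and orange points the 5 F0_ABS-SAL libraries, and bars are medians. snRNA lies at 5.02% to 15.2% in F0_SAL and 35.2% to 54.9% in F0_ABS-SAL, and the snoRNA groups do not overlap either.

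In the test of single sets, 409 of the 2086 distinct sets passed the filter on low counts and 112 (27.4%) were called, 95 (23.2%) higher and 17 (4.16%) lower. The number lower depended on the processing and was 50 in DESeq2, 49 with DESeq2 size factors, 33 with 1 TMM factor from both matrices and 37 without library L. The median log2 fold change over all sets was 0.27 on the TMM scale and 0.46 with total count scaling, and single values are to be read against it. Of the sets, 24 (5.87%) had all later libraries above all earlier ones and 6 (1.47%) all below. By biotype, 22 of 37 snRNA sets were higher and 0 lower, with a median log2 fold change of 1.25, and 10 of them did not overlap. The number called varied from 11 to 23 with the normalization, the libraries and the filter, with 0 lower each time, and was 11 without library R. Of 13 snoRNA sets 7 were higher and 1 lower (median 1.48). Of 70 misc_RNA sets 32 were higher and 0 lower (median 0.60), 32 and 8 in DESeq2, and with the saline libraries alone the median was -0.00. The misc_RNA set with the most counts had a log2 fold change of -0.41 and was not called. The 2 Mt_rRNA sets had a median log2 fold change of -0.52 and were not called.

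The other biotypes gave fewer calls. Of 127 lincRNA sets 16 were higher and 11 lower (11 and 15 in DESeq2, 9 and 8 without library R), of 64 processed_transcript sets 4 and 1, of 16 sets with the biotype miRNA 2 and 0, and of 3 antisense sets 1 and 0. Nuclear-encoded rRNA gave 11 higher and 4 lower of 74, a split that became 6 and 19 in DESeq2, 6 and 1 without library R and 11 and 0 with total count scaling, where the median moved from -0.14 to 0.11.

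The set with the smallest p was an snRNA with 11 identical rows (ENSRNOT00000077425.1), the largest snRNA set by count. Its normalized count was 16331, 27184 and 28451 (lowest, median and highest) in F0_SAL and 118056, 76964, 132876, 114433 and 169934 in F0_ABS-SAL (log2 fold change 2.32, standard error 0.22, adjusted p = 7.09e-10), and every later library was above every earlier one. An snoRNA with 6 identical rows (ENSRNOT00000079504.1) was 116, 156 and 229 (lowest, median and highest) in F0_SAL and 734, 837, 1182, 2232 and 3662 in F0_ABS-SAL (log2 fold change 3.39, standard error 0.35, adjusted p = 2.43e-09), also without overlap. The largest processed_transcript set by count was 0, 4.81 and 12.6 (lowest, median and highest) in F0_SAL and 276, 140.2, 440.4, 101.2 and 204 in F0_ABS-SAL (log2 fold change 5.30, standard error 0.58, adjusted p = 7.30e-09). In this set every later library lay far above every earlier one. Its rank by count came from the later libraries (mean 232 against 5.88 in F0_SAL). The F0_SAL values lay near the floor of 3 counts, which is 3.57 on this scale, so the size of the fold change is uncertain.

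Among the sets called lower, the lincRNA ENSRNOT00000077925.1 had normalized counts of 2.82, 9.83 and 30.2 (lowest, median and highest) in F0_SAL and 0 in all 5 F0_ABS-SAL libraries. Its F0_SAL mean of 13.9 was 5.64-fold above a floor of 3 counts per later library, which is 2.47 on this scale (adjusted p of the edgeR test 1.06e-04). The earlier libraries W, O and V, at 2.82, 3.39 and 4.19, lay near that floor, so the fold rests on the other earlier libraries. The lincRNA ENSRNOT00000091412.1 was 7.55, 28.8 and 59.2 (lowest, median and highest) in F0_SAL and 10.2, 5.33, 4.81, 2.49 and 2.63 in F0_ABS-SAL (log2 fold change -2.69, standard error 0.52, adjusted p = 2.49e-04), and 1 later library lay within the earlier range. Both are low in all libraries. The ncRNA matrix pairs no gene symbols with these identifiers.

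Of the 112 ncRNA sets called, 102 had the same sign in the morphine groups, against 74.7% of the 297 not called. 91 sets were called in the same direction in both pairs of groups, and the test of the difference between them called 0, with 13 at an unadjusted p under 0.05. The snRNA and snoRNA sets named above had log2 fold changes of 2.02 and 3.45 there. Over all tested sets of a biotype, the median in the morphine groups was 0.59 for snRNA and 2.15 for snoRNA, against 1.25 and 1.48 in the saline groups. For the 2 Mt_rRNA sets it was 0.05, against -0.52 in the saline groups, so the lower Mt_rRNA level was not seen there.

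Sequence features of the called miRNAs were described without a test. The median GC content was 47.8% in the miRNAs called higher, 48.9% in those called lower and 44.0% in those not called, and the median length was 22 bases in each. A uridine at the first base was found in 46.3%, 50.0% and 49.2%.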

How the data were processed

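Small RNA libraries of 25 rat sperm samples were analysed, of which 7 F0_SAL and 5 F0_ABS-SAL libraries entered the comparison. The authors trimmed, aligned and annotated the reads with sRNAbench (rat Rnor_6.0, miRBase, then Ensembl ncRNAs) and deposited raw read counts per mature miRNA and ncRNA transcript, with no normalization. The smallest count above 0 was 2. Columns name a letter, REG or TO, and the drug. They were assigned to groups by the drug and by group size, and to no replicate number. Whether the males of a group came from separate litters or days is not given in the sources used here, so p-values measure the spread between males only. In edgeR and limma that spread was estimated over all 25 libraries, morphine groups included. The permutation tests used the 12 saline libraries alone.

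The main test was edgeR 4.0.16 (R 4.3.3) with TMM normalization, filterByExpr and the quasi-likelihood test, with all 25 libraries in 1 model of 4 groups, after ncRNA rows with identical counts were collapsed. RNAs were called where the log2 fold change lay beyond 0.58 in either direction with a Benjamini-Hochberg adjusted p under 0.1. Standard errors are the fold change divided by the square root of F. Normalized counts are TMM-scaled to the geometric mean library. Arm ratios, log2 of 5p plus 1 over 3p plus 1 counts, were tested with limma 3.58.1, and shares and totals with two-sided exact permutation tests (scipy 1.17.1). Biotype shares and ncRNA totals counted every row. Families and cell type markers were listed by hand, and seeds and neighbouring genes (within 10 kb on 1 strand) came from RefSeq GRCr8. The tests were tried on simulated counts. Intervals from depth cover counting error only, and 3 counts were between 9.37e-05% and 2.59e-04% of a saline library's miRNA counts.

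The miRNAs named are the 10 higher and 10 lower with the smallest p, the 10 most abundant, up to 4 members of each list, and clusters and seed families with at least 3 tested, with the ncRNA sets of smallest p. miR-16-5p, miR-92a-3p, miR-199a-5p, miR-201-3p, miR-34b-5p, miR-449a-5p, miR-497-5p, miR-509-3p and miR-547-5p were added after their values were seen, to complete a cluster or seed. The groups, lists and tests were chosen with earlier results of these data known. Alternatives were DESeq2 1.42.0, limma-voom, other scalings, filters and thresholds, a depth covariate, the saline libraries alone, removal of the most abundant RNAs, and each library left out in turn.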

Additional observations from a re-analysis of the deposited data

Results flagged for a closer look

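In 138 groups of 5 or 7 libraries (named miRNAs, biotype shares and library totals), the highest or lowest library was checked for a gap to the next that was large against the range of the group. Chance flags about 1 in 20 groups, which is 6.9 here, and 9 were found. Library R of F0_ABS-SAL accounted for 4 of them. On the scale of log2(normalized count + 1) it was highest for miR-96-5p (7.63, next 6.82) and miR-200a-3p (13.81, next 12.57) and lowest for miR-30c-5p (13.52, next 14.05), and its log2 Mt_rRNA share in percent was lowest (5.11, next 5.60). Library Y was highest for miR-140-3p (14.34, next 13.89) and library E for let-7a-5p (13.92, next 12.95). In F0_SAL, library H was lowest for miR-126a-5p (5.58, next 6.33). Library O had the lowest log2 snRNA share in percent (2.33, next 3.32) and the highest log2 ncRNA total (22.63, next 21.76).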

How the results depend on the processing

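Of the 49 named miRNAs called, 49 kept their sign in every alternative, 28 stayed called in every alternative that used all 12 libraries and 30 whichever library was left out. For miRNAs, total count scaling gave 110 higher and 1 lower, a minimum of 10 counts in each saline library left 22 lower, and removing miR-34c-5p before normalization left 15 lower. DESeq2 gave 70 higher and 43 lower, and limma-voom 72 and 33. With 1 library left out, 65 to 126 miRNAs were called, 44 to 77 higher (fewest without library R) and 21 to 59 lower (fewest without R, most without E, and 51 without V). The log2 fold change of let-7f-5p, not called, ran from -0.11 to 0.11 with 1 library left out and was 0.39 with total count scaling.

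For ncRNAs, the number lower was 50 in DESeq2, 27 in limma-voom, 49 with DESeq2 size factors, 10 with total count scaling, 33 with 1 TMM factor from both matrices, 10 at an adjusted p under 0.05, and 35 of 176 called with rows not collapsed. A minimum of 10 counts left 58 higher. With 1 library left out, 79 to 130 were called, 67 to 94 higher and 12 to 37 lower, where the number lower was 31 without C, 36 without F, 37 without L and 34 without O. The cause was not tested. Arm ratio calls ran from 0 to 1 (without V, miR-339 at 1.10, adjusted p = 0.0343 in limma), and passing biotype shares from 5 to 7.

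Some differences in mean log2 share changed sign. With identical rows collapsed they were 0.31 for the miRNA biotype, 0.24 for pseudogene and 0.15 for sense_intronic. Without mitochondrial rRNA in the denominator they were -0.24 for antisense, -0.84 for lincRNA and -0.97 for processed_transcript, so their direction depended on the denominator. That denominator made up a larger part of the ncRNA counts in F0_ABS-SAL, where the Mt_rRNA share was lower. With 1 library left out, they ran from -0.22 to 0.0487 for miRNA, -0.32 to 0.0788 for pseudogene and -0.39 to 0.0408 for sense_intronic. With every ncRNA row counted, the difference in log2 ncRNA total ran from 0.62 to 0.87 and in log2 miRNA to ncRNA ratio from -0.50 to -0.32. The difference in the miR-34c-5p share ran from -11.4 to -7.63 percentage points. The adjusted p of these measures in the exact permutation tests ran from 0.0173 to 0.186. No paired analysis was possible because the columns carry no replicate numbers.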
